A study of Mus musculus with 3 samples.

Results

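The smooth muscle and cytoplasmic actin genes comprised 10 genes chosen by symbol. Their probes were all gene probes on the array annotated to *Acta2*, *Actg2*, *Tagln*, *Cnn1*, *Myh11*, *Myl9*, *Actb*, *Actg1*, *Actn1* or *Actn4*. There were 16 such probes for 9 of the 10 genes, out of 41174 gene probes, and *Myl9* had no probe of that name. Expression was measured in mouse hearts at 2 months of age, strain C57/BL6, on 3 Agilent whole mouse genome arrays of 2 colours. On each array, by the labels, Cy5 carried RNA pooled from 2 *Lrrc10*-/- hearts and Cy3 carried a heart reference pool from 2 *Lrrc10*+/+ (WT) mice. *Lrrc10* encodes a cardiac leucine-rich repeat protein that binds actin and alpha-actinin, and the comparison asks how its loss alters cardiac gene expression. Each pool mixes all cell types of the heart, and no dye swap was made. All ratios below are Cy5 over Cy3.

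Actins are filament-forming proteins encoded by a family of genes with nearly identical coding sequence. Smooth muscle cells of coronary vessels contract through smooth muscle actins and smooth muscle myosin, while cytoplasmic actins form the cytoskeleton of every cell in the heart. Alpha-actinins crosslink actin filaments, with sarcomeric isoforms at the Z-disc and non-muscle isoforms at adhesions and stress fibres. Many of these genes are controlled by serum response factor (SRF), which binds a promoter element called the CArG box.

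The probe of *Lrrc10* was examined first because it checks the labels. Its log2 ratio was 5.37 ± 0.41 (SD, n = 3 arrays; limma, adjusted p = 2.62e-04), with the higher signal in the channel labelled *Lrrc10*-/-. That ratio goes against the labels, so every direction is given by channel as labelled. The methods speak of 3 independent biological replicates, while the labels call the WT channel a reference pool. If the same WT pool was hybridized to every array, the spread between WT pools is not part of the test. Of 43379 gene spots on each array, 28942 to 30269 were well above background in Cy3 and 30512 to 30810 in Cy5. A mean processed signal of at least 20 left 29606 probes of 20617 genes for the test. The number of arrays is small, and calls depended on which were used. Over all probes limma called 2 with all 3 arrays, both brighter in Cy5, and 411 in Cy5 and 134 in Cy3 without replicate 3, none of them of a member gene.

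The probes are 60-base oligonucleotides, and the sequences of those on which the results turn are given here 5′ to 3′ as the array files list them. The brightest *Acta2* probe is shown whole, with capitals marking a run of 17 bases that it shares with another probe of the array. The first 30 bases are shown for the other probes.
*Acta2* A_51_P450957: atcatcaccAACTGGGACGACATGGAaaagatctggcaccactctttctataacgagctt
*Acta2* A_52_P420504: gttttgtggatcagcgcctccagttccttt
*Acta2* A_52_P210078: acactgacttcacagctagagtgactattt
*Cnn1* A_51_P350817: acacacgcattttggttttgcagtgactgg
*Actg1* A_51_P439803: taactgctcccttggtatatgtttaatacc
*Actb* A_51_P173760: cttttgactcaggatttaaaaactggaacg
These probes were not compared with genome or transcript sequence. Their position in their genes and their match to other actin transcripts were therefore not tested.

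None of the 9 member genes measured was called by limma at an adjusted p of 0.05, against 0.0097% of all genes tested. Before adjustment, 3 of 15 member probes had a p under 0.05, which held for 3.07% of all probes. These were 2 probes of *Acta2* and the probe of *Cnn1*, all brighter in Cy5. The plain test named in the methods, run on the same ratios and adjusted over all probes, called 0 probes of any gene, *Lrrc10* included. Its result therefore says nothing about the members. Read by the brightest probe of each gene, *Actg1* and *Cnn1* were brighter in Cy5 on all 3 arrays, 2 of 9 genes, against 9.46% of all genes. No member gene was brighter in Cy3 on all 3 arrays, against 12.2% of all genes. Counted by probe, 4 of 15 were brighter in Cy5 throughout and 0 of 15 in Cy3, against 9.99% and 11% of all probes. With 9 genes these counts describe the members and set them apart from nothing.

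**Figure D1:**
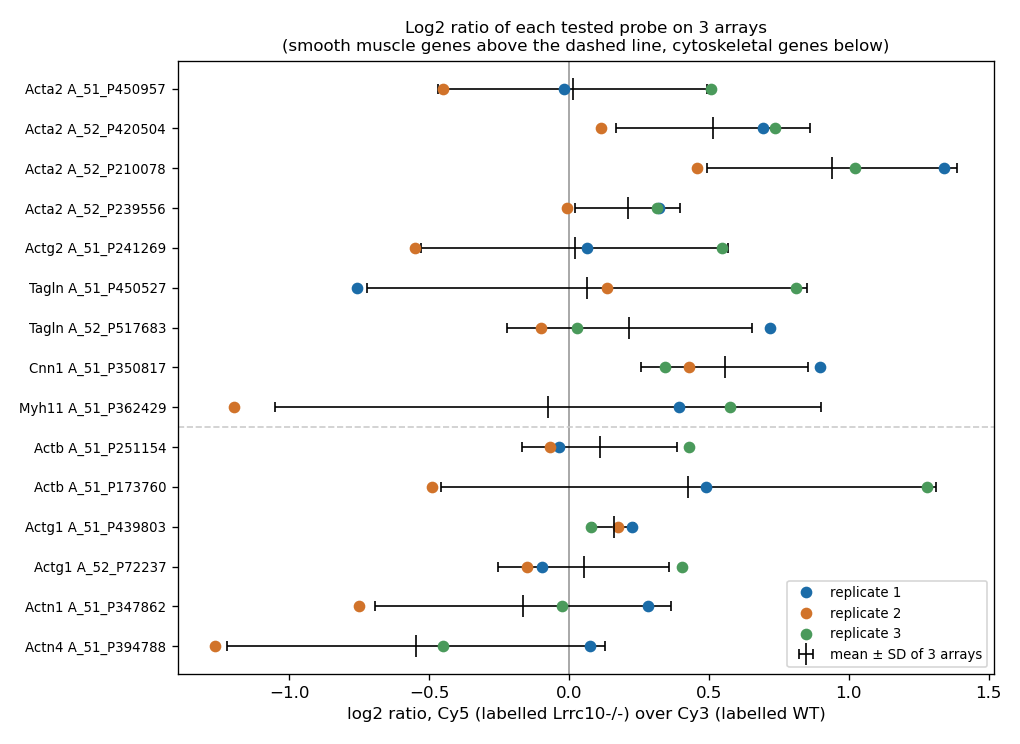
Log2 ratio, Cy5 (labelled Lrrc10-/-) over Cy3 (labelled WT), of the 15 tested member probes on each of 3 arrays (coloured points), with the mean and SD of the arrays (black). The points of Cnn1, of Actg1 A_51_P439803 and of Acta2 A_52_P420504 and A_52_P210078 lie right of 0 on all arrays, and for the other 11 probes at least 1 array lies on each side.

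*Acta2*, which encodes smooth muscle alpha-actin, had 5 probes, and they did not give one answer. Its brightest probe, A_51_P450957, had processed signals of 12450 in Cy3 and 12312 in Cy5 on replicate 1. The signals were 22461 and 16422 on replicate 2, and 16266 and 23112 on replicate 3. The channels were level on the first of these arrays and opposed on the other two. The log2 ratio was accordingly 0.01 ± 0.48 (SD, n = 3 arrays), with a 95% interval from limma of -0.51 to 0.53. After normexp correction and median centring it was 0.63, and 0.35 with unnormalized ratios centred on the median.

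Probe A_52_P420504 of *Acta2*, printed in 10 spots on each array, was brighter in Cy5 throughout. Its signals in Cy3 and Cy5 were 5235 and 8473 on replicate 1, 7811 and 8466 on replicate 2, and 3537 and 5889 on replicate 3. The ranges of the channels overlapped, although Cy5 was the brighter within each array. Its log2 ratios were 0.69, 0.12 and 0.74, with a mean of 0.52 ± 0.35 (SD, n = 3 arrays; limma, unadjusted p = 0.0338 and adjusted p = 1).

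The largest *Acta2* ratio belonged to A_52_P210078. Signals in Cy3 and Cy5 were 252.9 and 640.4 on replicate 1, 525.6 and 722.1 on replicate 2, and 200.8 and 408.1 on replicate 3. Cy5 was brighter on each array, and replicate 2 again gave the smallest gap. The log2 ratio of 0.94 ± 0.45 (SD, n = 3 arrays), a 1.92-fold higher signal in Cy5, had an unadjusted p of 0.00493 and an adjusted p of 1 from limma. It was the only member probe whose ratio was at least 1.2 in one direction on all 3 arrays, each with an array p under 0.05, which 0.915% of all probes passed. By brightest probe none of the 9 genes passed, against 1.05% of all genes. The study's methods ask for the ratio on every chip and do not say which p was used. With the limma p over the arrays in its place, an alternative chosen after seeing the data, this probe and that of *Cnn1* passed, against 2.04% of all probes, and by gene *Cnn1* passed, against 2.25% of all genes.

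Another *Acta2* probe, A_52_P239556, was dim, with signals of 50.5 to 87.3 in Cy3 and 62.8 to 91.7 in Cy5. Its log2 ratios were 0.32, -0.01 and 0.31. The last, A_52_P644232, was not well above background in either channel of any array and was not tested. Within arrays, A_52_P420504 lay above the brightest *Acta2* probe by 0.71, 0.57 and 0.23 on the log2 scale, and A_52_P210078 by 1.36, 0.91 and 0.52. Both differences were positive on 3 of 3 arrays, with an exact two-sided sign-flip p of 0.25, which is the smallest that 3 arrays allow. For A_52_P239556 the differences of 0.34, 0.44 and -0.19 had no common sign, with an exact p of 0.5.

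The capitalized run of 17 bases in the brightest *Acta2* probe also occurs in a probe that the array annotates as a fragment of cytoskeletal beta actin. That probe had log2 ratios of -0.25, -0.49 and 0.35 on replicates 1, 2 and 3, the same sequence of signs as the *Acta2* probe. Whether the probes capture each other's transcripts was not tested.

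*Actg2* encodes the gamma-actin of smooth muscle. Its probe had signals of 23302 in Cy3 and 24376 in Cy5 on replicate 1, 47079 and 32140 on replicate 2, and 35381 and 51639 on replicate 3. The log2 ratios of 0.06, -0.55 and 0.55 changed sign between arrays and averaged 0.02 ± 0.55 (SD, n = 3 arrays). This profile lay within a root mean square difference of 0.077 of the brightest *Acta2* probe, while the median over 153 pairs of member and sarcomeric probes was 0.638. As a description over 3 arrays, such a distance has no test.

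*Tagln*, which encodes the smooth muscle actin-binding protein transgelin (SM22), was measured by 2 probes that disagreed. Probe A_51_P450527 had signals in Cy3 and Cy5 of 8862 and 5241 on replicate 1, 7238 and 7955 on replicate 2, and 6050 and 10621 on replicate 3. Cy3 was brighter on replicate 1 and Cy5 on the others, and the mean log2 ratio was 0.06 ± 0.79 (SD, n = 3 arrays). The dimmer probe, A_52_P517683, read 372.3 and 612.3, then 720.2 and 672.4, then 389.0 and 397.2 on the same arrays. Its ratio was highest on replicate 1, where that of the first probe was lowest, and averaged 0.22 ± 0.44 (SD, n = 3 arrays). The within-array differences of 1.48, -0.24 and -0.78 between the probes had no common sign, with an exact two-sided sign-flip p of 1.

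*Cnn1*, which encodes calponin, an actin-binding regulator of smooth muscle contraction, was the only member whose channels did not overlap. Its signals in Cy3 were 137.3, 248.3 and 243.7, and in Cy5 255.9, 334.1 and 309.0, on replicates 1, 2 and 3. The lowest Cy5 signal was above the highest Cy3 signal, which held for 1 of 9 member genes and 3.08% of all genes. The log2 ratio was 0.56 ± 0.30 (SD, n = 3 arrays), a 1.47-fold higher signal in Cy5, with a 95% interval of 0.01 to 1.10. It had an unadjusted p of 0.0471 and an adjusted p of 1 from limma, and 96.4% of genes had a lower mean ratio. Its ratio was at least 1.2 on all 3 arrays, with an array p of 0.101 on replicate 3.

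*Myh11*, the smooth muscle myosin heavy chain, had the widest spread of the smooth muscle genes. Signals in Cy3 were 265.3, 803.9 and 164.3 on replicates 1, 2 and 3, and in Cy5 348.7, 350.6 and 244.7. The Cy3 signals thus spanned a 4.89-fold range against 1.43-fold in Cy5, with replicate 2 far above the others in Cy3. The log2 ratios of 0.39, -1.20 and 0.58 averaged -0.08 ± 0.98 (SD, n = 3 arrays), and 93.6% of genes had a smaller SD. Without replicate 2 the mean was 0.48, with the opposite sign.

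*Myl9*, the regulatory light chain of smooth muscle myosin, was absent by name. A probe outside the rule that the array describes as myosin regulatory light chain 9 had log2 ratios of 0.58, 0.25 and 0.03, positive on all 3 arrays. Their mean of 0.29 ± 0.28 (SD, n = 3 arrays) had an adjusted p of 1 from limma. It was singled out after its description had been searched for, and it enters none of the counts.

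**Figure D2:**
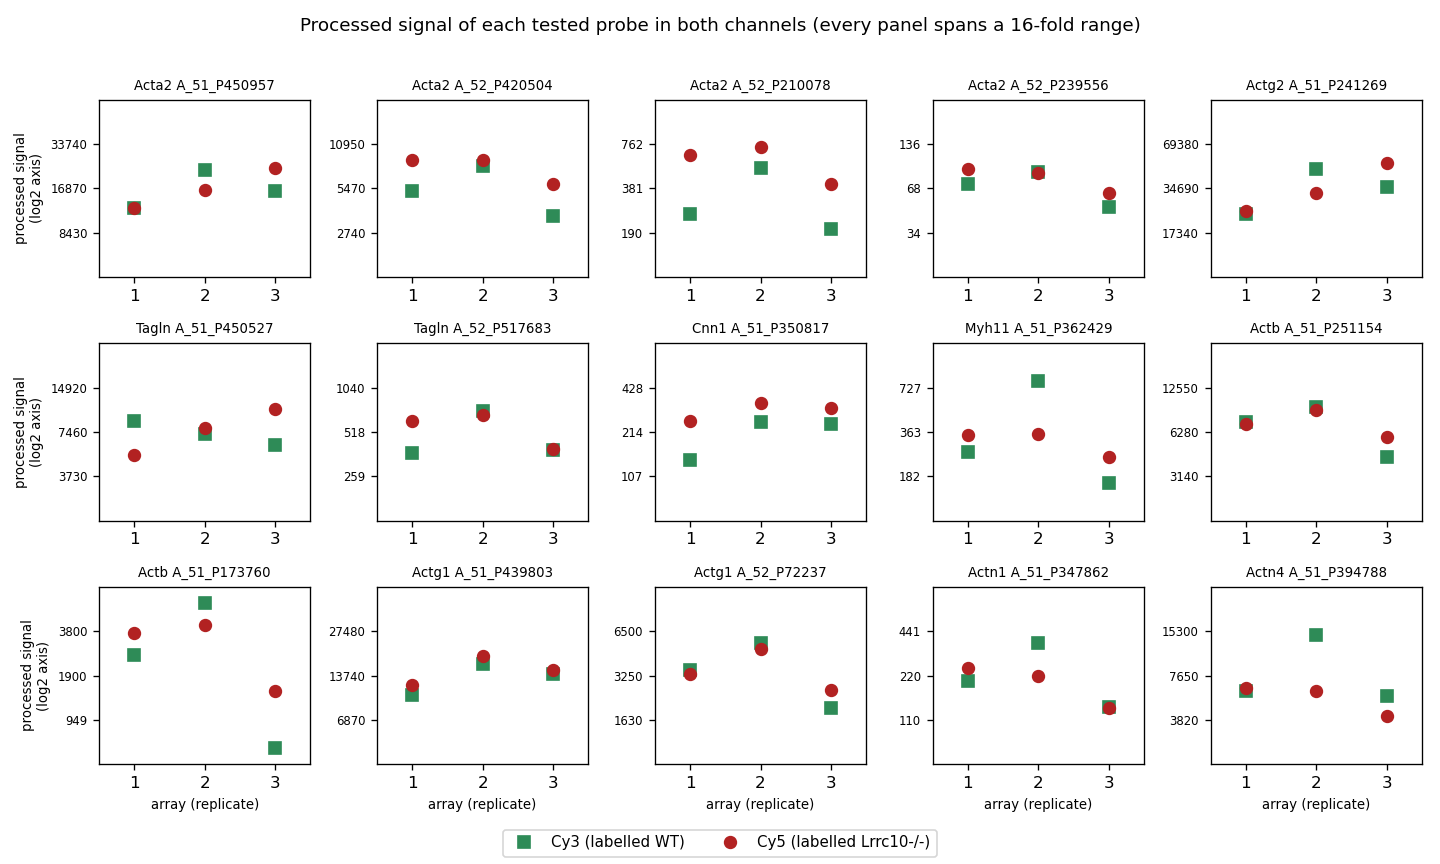
Processed signal (log2 axis, each panel a 16-fold range) of the 15 tested member probes in Cy3 (green squares, labelled WT) and Cy5 (red circles, labelled Lrrc10-/-) on arrays 1 to 3. Cnn1 is the only panel in which every red circle lies above every green square, and the high Cy3 squares of Myh11 and Actn4 belong to replicate 2.

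*Actb* encodes cytoplasmic beta-actin, a common reference gene. Its brighter probe, A_51_P251154, had signals in Cy3 and Cy5 of 7286 and 7115 on replicate 1, 9216 and 8799 on replicate 2, and 4273 and 5757 on replicate 3. The channels were near level on the first of these arrays and on the next, and the mean log2 ratio was 0.11 ± 0.28 (SD, n = 3 arrays). The other probe, A_51_P173760, with 10 spots per array, had signals of 2620 and 3682 on replicate 1, 5866 and 4182 on replicate 2, and 614.6 and 1492 on replicate 3. Its Cy3 signals spanned a 9.55-fold range, the widest among the 15 member probes, and its Cy5 signals a 2.80-fold range. Log2 ratios of 0.49, -0.49 and 1.28 averaged 0.43 ± 0.89 (SD, n = 3 arrays).

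The 10 spots of that *Actb* probe differed by an SD of only 0.041 to 0.054 within an array. For the 10 spots of *Acta2* A_52_P420504 the SD within an array was 0.065 to 0.074, against 0.35 between arrays. Differences between animals, RNA pools and hybridizations cannot be told apart.

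**Figure D3:**
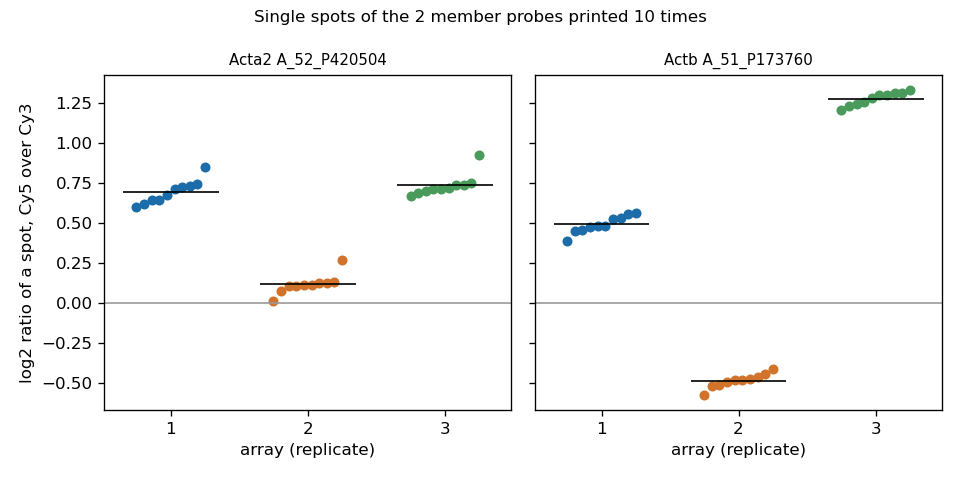
Log2 ratio, Cy5 over Cy3, of each of the 10 spots of Acta2 A_52_P420504 and Actb A_51_P173760 on arrays 1 to 3, sorted within an array, with the mean as a black line. Spots of one array lie close together, and the Actb means run from -0.49 on replicate 2 to 1.28 on replicate 3.

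*Actg1* encodes cytoplasmic gamma-actin. The brighter probe, A_51_P439803, had signals in Cy3 and Cy5 of 10157 and 11860 on replicate 1, 16475 and 18589 on replicate 2, and 14133 and 14939 on replicate 3. Cy5 was slightly brighter on each array, with log2 ratios of 0.22, 0.17 and 0.08, while the ranges of the channels overlapped. The mean of 0.16 ± 0.073 (SD, n = 3 arrays) had the smallest SD of the member probes, and 3.21% of genes had a smaller one. Its adjusted p was 1 from limma, with a 95% interval of -0.25 to 0.57. After normexp correction of the background and median centring the ratio was 0.81, a move of over 1.5 times in the fold, and its adjusted p was 0.0726.

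The other *Actg1* probe, A_52_P72237, had log2 ratios of -0.10, -0.15 and 0.40, with a mean of 0.05 ± 0.31 (SD, n = 3 arrays). It was not brighter in one channel throughout. Its profile lay within 0.062 of that of *Actb* A_51_P251154, the smallest distance among the 153 pairs, and the longest run of bases the probes share is 5.

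The non-muscle alpha-actinins gave the lowest mean ratios of the members in the deposited ratios, though *Actn1* was at 0.13 without replicate 2. *Actn4* had signals of 6012 in Cy3 and 6326 in Cy5 on replicate 1, 14447 and 6008 on replicate 2, and 5533 and 4049 on replicate 3. Cy3 was brighter on replicates 2 and 3 and the channels were near level on replicate 1. The mean log2 ratio of -0.55 ± 0.67 (SD, n = 3 arrays) had an unadjusted p of 0.0711 and an adjusted p of 1 from limma, and 2.67% of genes had a lower mean. Without replicate 2 it was -0.19.

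*Actn1* had signals of 202.5 in Cy3 and 246.0 in Cy5 on replicate 1, 365.7 and 217.6 on replicate 2, and 135.3 and 132.9 on replicate 3. Here too the high Cy3 value was that of replicate 2. Log2 ratios of 0.28, -0.75 and -0.03 averaged -0.17 ± 0.53 (SD, n = 3 arrays; limma, adjusted p = 1).

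Replicate 2 gave the lowest ratio of the 3 arrays for 12 of 15 member probes, and for 38.1% of all probes tested. It gave the highest ratio for 0 of 15 member probes and for 36.6% of all probes. Probes of one gene and genes of one cell type are not independent, so no test was made of this count. The Cy3 signals of the arrays spanned a wider range than the Cy5 signals for 12 of 15 member probes and for 65.5% of all probes. After scaling each channel to its median over all probes, this held for 11 of 15 member probes and 76.3% of all probes. A wider range in Cy3 was therefore a property of most probes on these arrays.

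Smooth muscle members, 5 genes by brightest probe, had a median log2 ratio of 0.02 over the arrays, beside -0.01 for all genes tested. By array the median was 0.06, -0.45 and 0.55. For the 4 cytoskeletal members it was -0.03 over the arrays, and 0.15, -0.41 and 0.03 by array. All genes had 0.00, 0.04 and -0.06. Neither subset therefore kept its sign across the arrays.

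Other smooth muscle contractile genes were read from a list of 22 symbols, among them *Smtn*, *Mylk*, *Lmod1* and *Cald1*, all of which had a tested probe. The list had a median of 0.02, and 0.30, -0.10 and 0.07 by array. In it, 0 genes were called by limma, 1 was brighter in Cy5 throughout and 0 in Cy3, against 9.46% and 12.2% of all genes. The one was *Tpm2*, a beta-tropomyosin, at 0.29 ± 0.40 (SD, n = 3 arrays). Its log2 ratios were 0.76, 0.02 and 0.11, so the channels were near level on replicates 2 and 3. A list of 35 other genes of the cytoplasmic actin cytoskeleton had a median of -0.03, with 0 called, 5 brighter in Cy5 throughout and 5 in Cy3, to be read beside the 9.46% and 12.2% of all genes. *Tmsb4x*, which encodes the actin-sequestering thymosin beta 4, had the largest ratio of those in Cy5, at 0.57 ± 0.45 (SD, n = 3 arrays). *Actr2*, a subunit of the actin-nucleating Arp2/3 complex, was at 0.31 ± 0.16, and *Lasp1*, an actin-binding adaptor, at -0.41 ± 0.41 (SD, n = 3 arrays).

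Sarcomeric relatives were no more uniform. *Acta1*, the skeletal muscle alpha-actin, had log2 ratios of -0.18, 0.54 and -0.45. *Actc1*, the cardiac alpha-actin, had 0.31, -0.55 and -0.21, with its Cy5 spot saturated on 1 array. *Actn2*, the Z-disc alpha-actinin, had 0.00, -1.25 and 0.31. None of these 3 genes was brighter in one channel on all arrays, and *Actn3* was not among the tested probes. *Acta1* alone of them was highest on replicate 2.

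**Figure D4:**
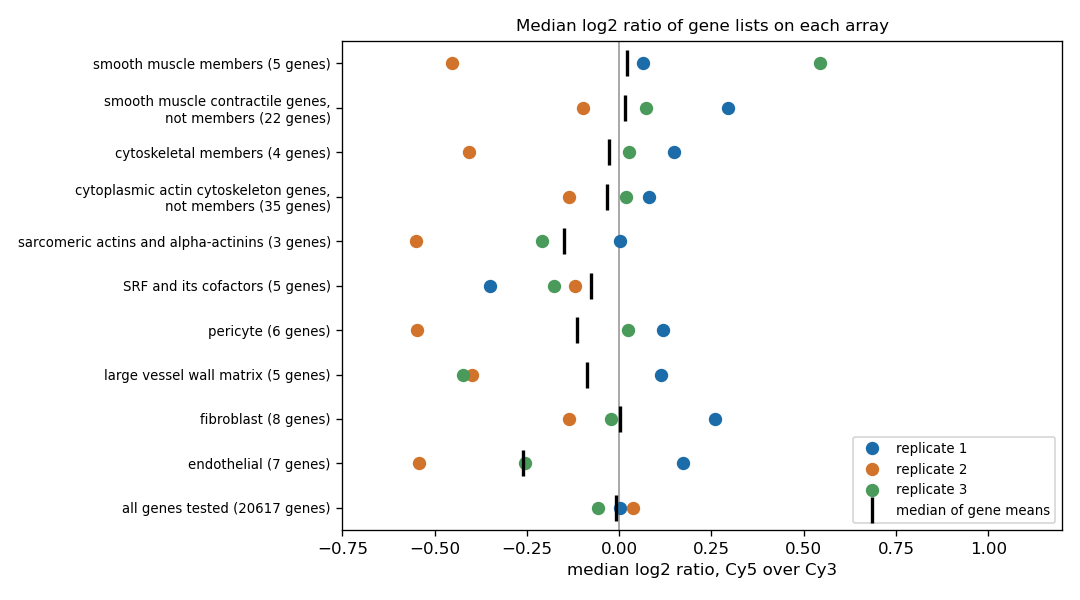
Median log2 ratio, Cy5 over Cy3, of gene lists on each of 3 arrays (coloured points) and the median of the gene means (black bar), with the number of tested genes in brackets. The smooth muscle members run from -0.45 on replicate 2 to 0.55 on replicate 3, while the medians of all genes lie between -0.06 and 0.04.

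SRF and its cofactors were read because SRF acts on many actin promoters. Of 6 listed genes 5 were tested, with a median of -0.08 and 0 called, and *Fhl2*, a LIM-domain cofactor, was saturated on 2 arrays in Cy3 and on 3 in Cy5, so its ratio is not given. Promoter windows of 250 bases before to 50 bases after the start of transcription, from RefSeq on GRCm38.p6, were at hand for 6 member genes, namely *Acta2*, *Actg1*, *Actn1*, *Actn4*, *Cnn1* and *Myl9*. They were searched for the CArG box, a motif that reads the same on both strands, and for a near match with a single G or C in its A/T core. The sequences are shown with the box in capitals, for the genes with a match.
*Actg1* at position -90, CArG box, chr11:120348566-120348595, minus strand: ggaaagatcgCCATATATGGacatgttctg
*Acta2* at position -84, near match, chr19:34255438-34255467, minus strand: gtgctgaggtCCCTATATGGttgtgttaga
*Acta2* at position -34, near match, chr19:34255388-34255417, minus strand: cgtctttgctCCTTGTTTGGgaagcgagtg
*Myl9* at position -161, CArG box, chr2:156775293-156775322, plus strand: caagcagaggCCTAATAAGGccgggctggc
*Myl9* also held a near match at position -99. A CArG box lies in 1.63% of 32851 such windows and a box or near match in 9.98%. The windows of *Actn1*, *Actn4* and *Cnn1* do not hold these letters, and a match is a description of sequence, with binding not measured here.

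Markers of other cell types in whole hearts were read beside the members, and their part in the member ratios was not tested. Pericyte markers, all 6 measured, had medians of 0.12, -0.55 and 0.02 by array, and large vessel wall genes, all 5, of 0.11, -0.40 and -0.42. Endothelial markers, all 7, had 0.17, -0.54 and -0.25, and fibroblast markers, all 8, had 0.26, -0.14 and -0.02. Pericyte, endothelial and fibroblast medians were lowest on replicate 2, and those of large vessel wall genes, macrophage and atrial markers on replicate 3. Lists with saturated or dim probes were not ranked. In bulk RNA, fewer cells of a type and less RNA per cell cannot be told apart. The summed signal of the pericyte markers was 46057 to 74834 in Cy3 and 48602 to 75165 in Cy5, and that of the large vessel wall genes 23627 to 48779 and 24779 to 36565. None of these markers was called by limma. *Eln*, the elastin of large vessels, was brighter in Cy3 on all arrays at -0.82 ± 0.55, and the endothelial receptor *Tie1* at -0.37 ± 0.16 (SD, n = 3 arrays). Each was the lowest of its list. The medians over the arrays were -0.09 for large vessel wall genes and -0.26 for endothelial markers. The summed signal of the large vessel wall genes was higher in Cy5 on replicates 1 and 2 and higher in Cy3 on replicate 3.

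Among the remaining marker lists, 3 of 4 epicardial genes were tested, with a median of -1.36. *Msln*, well above background throughout, stood at -1.44 ± 0.30 on the log2 scale (SD, n = 3 arrays; limma, adjusted p = 0.615) and was brighter in Cy3 on all arrays. The list median is the ratio of *Upk3b*, which was well above background in Cy5 on only 1 of 3 arrays, and is imprecise for that reason. Atrial markers, all 4, had a median of 0.58, and -0.16, 2.41 and -0.98 by array. *Nppa* was the lowest of them, at -0.78 ± 0.14 (SD, n = 3 arrays), and was brighter in Cy3, labelled WT, on all 3 arrays. The paper reports *Nppa* among the genes most significantly raised in adult *Lrrc10*-/- hearts. By the channel labels its direction here was the opposite, as for the *Lrrc10* probe, and the cause was not tested. Ventricular cardiomyocyte markers, all 6, which check the tissue, had summed signals of 731568 to 1245550 over both channels, with 5 of the 6 saturated on at least 1 array, so no median is given. *Myl2*, *Myl3* and *Tnni3* were saturated throughout in Cy5, and in Cy3 on 2 or 3 arrays, so no ratio or direction is read from them. Macrophage markers had a median of 0.05, with *Mrc1* at 0.29 ± 0.26 (SD, n = 3 arrays). Of the 4 red blood cell markers 2 were saturated, among them *Hbb-bt* in Cy5 on all 3 arrays, so neither their median nor its ratio is given.

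The genes whose ratios ran closest to the mean profile of the smooth muscle members, 0.12, -0.33 and 0.56 on replicates 1, 2 and 3, were *Pigo*, *Dnajc16*, an unnamed transcript listed as NAP038295-1, *Cd81* and *Tbc1d12*. Their root mean square distances were 0.021, 0.030, 0.040, 0.048 and 0.050 on the log2 scale. Of 20608 genes outside the members, 65 lay within 0.1. Over only 3 arrays such closeness is a description.

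**Figure D5:**
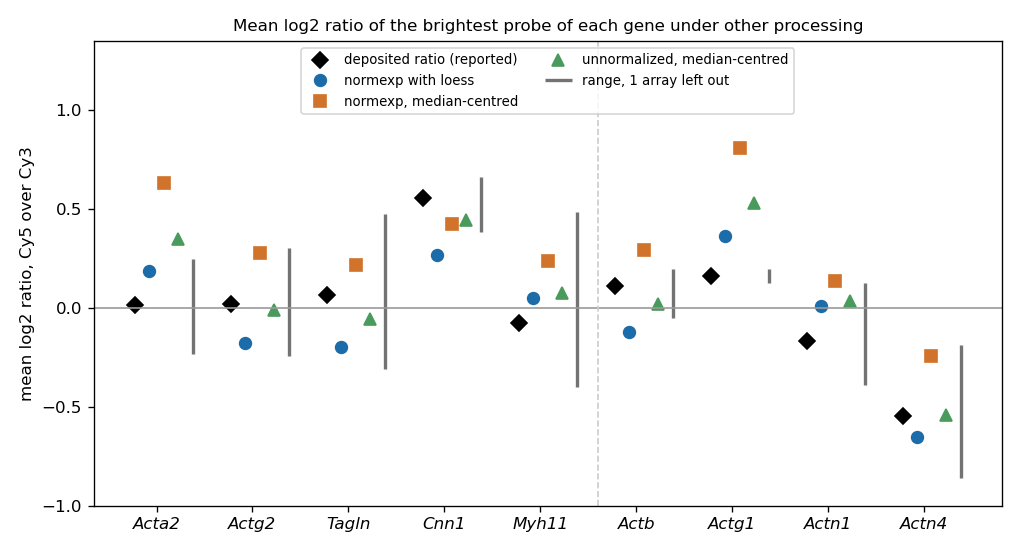
Mean log2 ratio, Cy5 over Cy3, of the brightest probe of each member gene from the deposited ratios (black) and under 3 other ways of correcting background and scaling (coloured), with the range when 1 array is left out (grey bars). Cnn1 and Actg1 stay above 0 and Actn4 below 0 in all of them, and the other 6 genes cross 0.

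Across the reported setting and the 7 alternatives that could move a ratio, 3 of which leave out an array, *Cnn1* ranged from 0.27 to 0.66, *Actg1* from 0.11 to 0.81 and *Actn4* from -0.86 to -0.19. *Acta2* A_52_P210078 ranged from 0.53 to 1.18 and A_52_P420504 from 0.41 to 0.83 over the reported setting and the 6 of these alternatives that read single probes. The signs of these genes and probes did not change. The other *Actg1* probe, A_52_P72237, did change sign, with a range from -0.12 to 0.31. The lowest adjusted p from limma among all member probes and settings was 0.0687, for *Acta2* A_52_P210078. It came after normexp correction and median centring, a setting in which the median of the tested probes was 0.16.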

How the data were processed

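RNA pooled from 2 hearts was hybridized in each channel of 3 arrays on 1 slide, with no dye swap. The authors deposited Agilent Feature Extraction 9.1.3.1 output, in which processed signal intensities had background subtracted, spatial trends removed and dyes normalized within each array. The deposited log10 ratios are of these signals, Cy5 over Cy3, and the deposited p-value belongs to 1 spot. The authors' series table of log10 ratios equals them within 1e-06, with 1 value missing.

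Here ratios were put on the log2 scale, outlier spots (4 to 21 per array) left out, spots of a probe averaged, and probes with a mean signal (geometric) of at least 20 tested against 0 with limma 3.58.1 in R 4.3.3 (eBayes with an intensity trend, two-sided, Benjamini-Hochberg over 29606 probes). A gene was read by its brightest probe. Channels overlap where the ranges of their processed signals do. Alternatives were other background correction and scaling, signal minimums of 50 or none, saturated spots left out, no intensity trend, the methods' t-test, the mean over probes, and each array left out. All member probes were named, and from each list genes called or, failing that, up to 3 with the largest ratio among those brighter in one channel on all arrays. Members and lists were chosen with earlier results of these data known.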

Additional observations from a re-analysis of the deposited data

How the results depend on the processing

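No member gene was called by limma under any alternative run. Over all probes, runs other than that without replicate 3 called 0 to 10 in Cy5 and 0 in Cy3, so this absence does not set the members apart. The medians of both member subsets moved by less than the spread between arrays, but both changed sign. For smooth muscle members the median was -0.24 without replicate 3 and 0.31 without replicate 2. For cytoskeletal members it was 0.21 with normexp centred on the median and -0.14 without replicate 3. The number of member genes brighter in one channel on all arrays was 2, was 3 with normexp and loess and 4 with normexp centred on the median, and was 4 to 5 when 1 array was left out, where 2 arrays have to match instead of 3. *Actb*, *Actg2*, *Actn1*, *Myh11* and *Tagln* turned sign with normexp and loess, to -0.12, -0.18, 0.0089, 0.05 and -0.20. *Actn1* and *Myh11* turned to 0.13 and 0.24 with normexp centred on the median. There the median of the tested probes was 0.16, above the value of *Actn1*. *Actg2*, *Actn1*, *Myh11* and *Tagln* turned to -0.011, 0.033, 0.077 and -0.054 with unnormalized ratios centred on the median, where the median of the tested probes was 0.065. The cause was not tested. When 1 array was left out, *Acta2* ran from -0.23 to 0.25, *Actb* from -0.051 to 0.20, *Actg2* from -0.24 to 0.31, *Actn1* from -0.39 to 0.13, *Myh11* from -0.40 to 0.48 and *Tagln* from -0.31 to 0.47. Without replicate 3, limma called 411 probes in Cy5 and 134 in Cy3, none of a member gene, against 2 and 0 with all arrays. *Acta2* moved from 0.01 to 0.63 with normexp centred on the median. The selection by ratio passed 0 member genes with the p of each array and 1 with the p over the arrays. Of 63 values for single genes under the 7 alternatives that can move a ratio, 45 kept their sign. The other 5 alternatives leave the ratios as they are by construction. Signal over background limited only 1 member probe, *Acta2* A_52_P644232. The ratio within an array already pairs the channels, so no further block was fitted.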
